A study of Homo sapiens with 4 samples.

Results

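The genes described here encode the myosin motor heavy chains (symbols MYH and MYO) and the myosin light chains (symbols MYL). They were picked from the deposited expression table by symbol alone: 54 of its 57659 rows carry a symbol made of one of these 3 roots, a number and an optional letter. A symbol that stood on more than 1 row kept the row with the higher mean, which left 51 genes. The 3 rows dropped in this way (second entries of MYO19, MYO1F and MYO7A) held 0 counts in all 4 libraries.

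Myosins are motors that pull on or walk along actin filaments. Myosin II molecules pair heavy chains with a regulatory and an essential light chain, assemble into bipolar filaments and drive contraction, both in muscle and, through the nonmuscle heavy chains, in the cortex and stress fibres of migrating cells. Phosphorylation of the regulatory light chain by myosin light chain kinase or the ROCK kinases switches nonmuscle myosin II on, and myosin phosphatase reverses it. The other classes, named by Roman numerals, work alone or in pairs on membranes, organelles and cell protrusions.

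RNA-seq was done on 786-0, an established human renal cell carcinoma line whose known loss of the VHL tumour suppressor keeps hypoxia-inducible factor signalling active. There were 2 groups of 2 libraries. One group came from 786-0 cells given an siRNA that targets SLFN5 (SLFN5 siRNA 1 and SLFN5 siRNA 2), and the other from 786-0 cells given a control siRNA (control siRNA 1 and control siRNA 2). The series' design text also speaks of triplicates, without saying what was done 3 times, and 4 libraries were analysed here. The labels leave unsaid whether the 2 libraries of a group are separate cultures, so the p-values measure only the spread between these libraries, which may be technical.

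Values are the deposited ones, called equalised counts here: read counts that the authors had adjusted to 1 common library size. The whole counts behind them totalled 17117659 and 14700669 in SLFN5 siRNA libraries, against 31905328 and 13187517 in control siRNA libraries. Log2 changes are SLFN5 siRNA minus control siRNA on log2(value + 1), with the standard error (SE), and understate the change of low genes. Each adjusted p is from limma with Benjamini-Hochberg adjustment over all 15640 genes tested, and a gene was called at an adjusted p under 0.05. In bulk RNA, fewer cells expressing a gene and less RNA per cell cannot be told apart.

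The target of the siRNA was lower in both libraries. SLFN5 had 167 and 118 equalised counts in SLFN5 siRNA libraries and 420 and 353 in control siRNA libraries (log2 change -1.45, SE 0.21, limma adjusted p = 0.000524). The labelled cell type was also checked against markers of renal carcinoma and tubule epithelium. Of 10 such markers 9 were tested, and 33.3% of these were called, against 29.6% of all tested genes. The calls were 2 higher and 1 lower, and log2 changes of the tested markers ran from -0.991 to 1.419. PAX8, KRT8 and KRT18 were among the 6 not called. They averaged 3693, 7562 and 4742 equalised counts after SLFN5 siRNA and 3928, 7685 and 3961 after control siRNA. A call speaks of change between groups and not of presence. CA9, a hypoxia target common in clear cell carcinoma, had 4 counts in all.

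The sequences of the regulatory light chains show how alike they are where the kinases act, and how far reads can separate them. Each line below gives 60 bases of coding sequence from the GENCODE v29 reference transcript, 5′ to 3′, with the adjacent threonine and serine codons that light chain kinases phosphorylate in capitals.
MYL9: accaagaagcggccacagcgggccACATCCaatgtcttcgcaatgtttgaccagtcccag
MYL12A: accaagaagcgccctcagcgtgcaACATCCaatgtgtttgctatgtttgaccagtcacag
MYL12B: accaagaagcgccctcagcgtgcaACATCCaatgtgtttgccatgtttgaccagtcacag

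The MYL12A and MYL12B windows differed at 1 of these bases, and each differed from MYL9 at 8. Over the whole coding sequence MYL12A and MYL12B were 95.2% identical, with a longest shared run of 77 bases. MYL9 was 78.6% identical to MYL12A and 80.5% to MYL12B, with longest shared runs of 26 and 19 bases. The handling of reads that fit both MYL12 genes is unknown, so the split between these neighbouring genes of chromosome 18 is uncertain. Their sum does not depend on that split if each such read was counted once. It would be too low if such reads were dropped, and too high if they were counted for both genes.

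Of the 51 genes, 26 had at least 10 equalised counts in at least 2 libraries and were tested, and 25 were not. Among those tested, 13 were called, 8 higher and 5 lower after SLFN5 siRNA. Over all tested genes 29.6% were called, 13.3% higher and 16.3% lower. The corresponding shares of the tested myosin genes were 30.8% higher and 19.2% lower. Calls come more easily at high values: with a mean of at least 500 equalised counts, 9 of 14 myosin genes were called (64.3%), and 44.3% of all such genes. The median log2 change was 0.28 over the tested myosin genes and -0.03 over all tested genes.

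**Figure D1:**
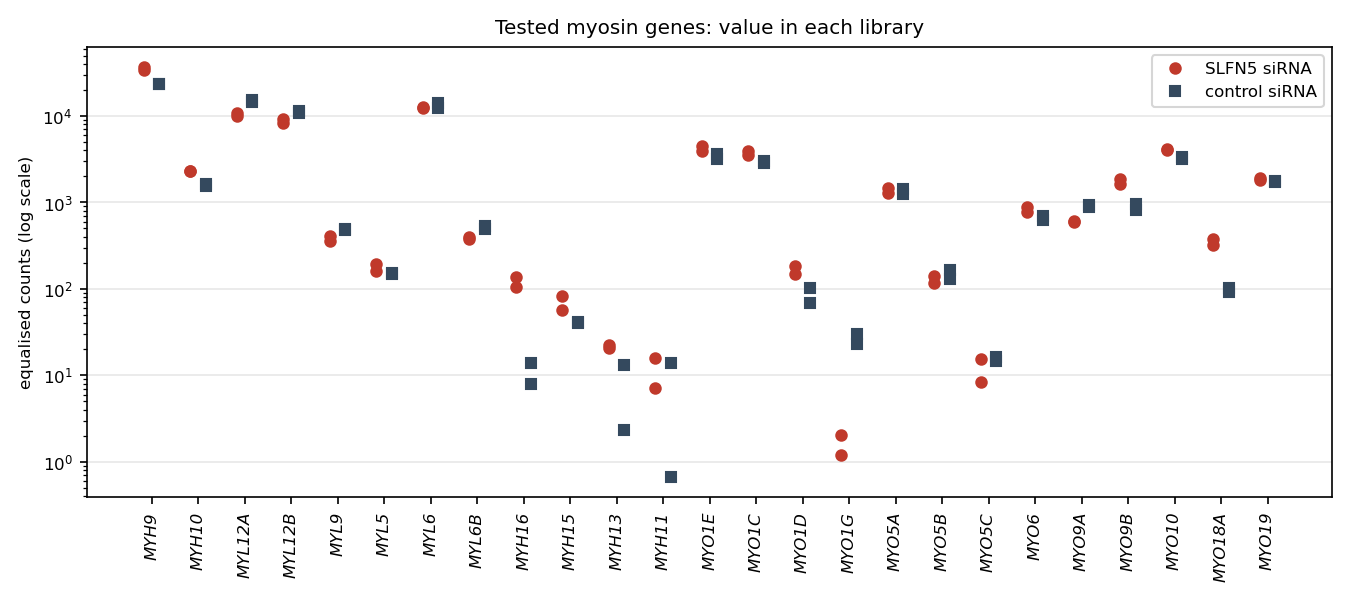
Equalised counts (log scale) of 25 tested myosin genes in each library, with SLFN5 siRNA as red circles and, to their right, control siRNA as dark squares. Libraries of the 2 groups do not overlap for 20 of these 25 genes, and for 64.6% of all tested genes, and the widest gaps are those of MYH16, MYO18A and MYO1G.

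The nonmuscle myosin II heavy chains were higher after SLFN5 siRNA. MYH9, the heavy chain of nonmuscle myosin IIA and the most abundant motor measured here, had 36468 and 34492 equalised counts in SLFN5 siRNA libraries and 23746 and 23319 in control siRNA libraries. Both knockdown libraries stood above both controls, and it averaged 35480 ± 1397 after SLFN5 siRNA and 23532 ± 302.5 after control siRNA (SD, n = 2 each), a ratio of 1.51 (log2 change 0.59, SE 0.11, limma adjusted p = 0.00203). MYH10, the heavy chain of nonmuscle myosin IIB, had 2336 and 2321 equalised counts in SLFN5 siRNA libraries and 1648 and 1541 in control siRNA libraries. It rose by a ratio close to that of MYH9, 1.46 (log2 change 0.55, SE 0.11, limma adjusted p = 0.00385). The third nonmuscle chain, MYH14, had 8 counts over the 4 libraries and was not tested. Compared per kilobase of transcript, MYH9 made up 94.1% and 93.8% of MYH9 plus MYH10 in SLFN5 siRNA libraries and 93.6% and 93.9% in control siRNA libraries, so the mixture of the 2 chains was nearly the same in all libraries.

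The ubiquitous regulatory light chains went the other way. MYL12A had 9960 and 10745 equalised counts in SLFN5 siRNA libraries, against 14344 and 15371 in control siRNA libraries. It fell to a ratio of 0.697 of the control mean (log2 change -0.52, SE 0.11, limma adjusted p = 0.00385), with no overlap between groups. MYL12B had 8413 and 9251 equalised counts in SLFN5 siRNA libraries, against 11464 and 10988 in control siRNA libraries (ratio 0.787, log2 change -0.35, SE 0.11, limma adjusted p = 0.0297). The MYL12B call was lost without SLFN5 siRNA 1 (adjusted p = 0.140), without control siRNA 1 (0.173), without control siRNA 2 (0.104) and with library totals alone as scaling (0.184). Summed, MYL12A and MYL12B had 18373 and 19996 equalised counts in SLFN5 siRNA libraries and 25808 and 26359 in control siRNA libraries.

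MYL9, the regulatory chain best known from smooth muscle, had 354 and 412 equalised counts in SLFN5 siRNA libraries and 493 and 475 in control siRNA libraries. Its groups did not overlap, but it did not pass (log2 change -0.34, SE 0.16, limma adjusted p = 0.125). Per kilobase it was a minor part of MYL9, MYL12A and MYL12B summed, 0.838% and 0.897% in SLFN5 siRNA libraries and 0.832% and 0.784% in control siRNA libraries. MYL5 was left out of sums of regulatory light chains. Per kilobase MYL5 stood above MYL9, at 267 against 136 after SLFN5 siRNA and 227 against 172 after control siRNA. MYL5, a little studied regulatory chain, had 194 and 162 equalised counts in SLFN5 siRNA libraries and 154 and 149 in control siRNA libraries (log2 change 0.23, SE 0.21, limma adjusted p = 0.464). Its exons overlap, on the opposite strand, those of ATP5I (named ATP5ME in the reference), which had 2547 and 2697 equalised counts in SLFN5 siRNA libraries and 2753 and 2854 in control siRNA libraries. No source used here states counting by strand, so reads of the 2 genes cannot be told apart in their overlap of 579 bases.

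The essential light chains, which stiffen the lever arm of the motor, did not pass. MYL6, the essential chain of nonmuscle and smooth muscle myosin, had 12492 and 12807 equalised counts in SLFN5 siRNA libraries, between the 12334 and 14003 of control siRNA libraries (log2 change -0.06, SE 0.11, limma adjusted p = 0.753). Its related gene MYL6B had 398 and 382 equalised counts in SLFN5 siRNA libraries and 528 and 498 in control siRNA libraries (log2 change -0.39, SE 0.15, limma adjusted p = 0.0675). MYL6B was thus lower in both knockdown libraries without passing the threshold. Exons of MYL6 overlap those of SMARCC2 on the opposite strand over 514 bases, and SMARCC2 was itself higher, at 930 and 796 equalised counts in SLFN5 siRNA libraries and 578 and 470 in control siRNA libraries.

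Because heavy and regulatory light chains moved in opposite directions, their ratio moved further than either. Per kilobase of transcript, MYH9 and MYH10 together stood at 5133 and 4869 equalised counts in SLFN5 siRNA libraries and 3359 and 3288 in control siRNA libraries. MYL9, MYL12A and MYL12B together stood at 14965 and 16295 per kilobase in SLFN5 siRNA libraries and 21025 and 21473 in control siRNA libraries. The level of regulatory light chains was therefore 2.92 and 3.35 times that of the heavy chains in SLFN5 siRNA libraries, against 6.26 and 6.53 times in control siRNA libraries, a log2 ratio of -1.03 between the group means. Such a ratio within a library does not depend on how libraries are scaled to each other. It does depend on trends with transcript length and GC content, described below, and it was not corrected for them. The essential chains stood at 2.76 and 2.98 times the heavy chains in SLFN5 siRNA libraries, against 4.20 and 4.84 times in control siRNA libraries. Transcript levels say nothing of protein stoichiometry.

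**Figure D2:**
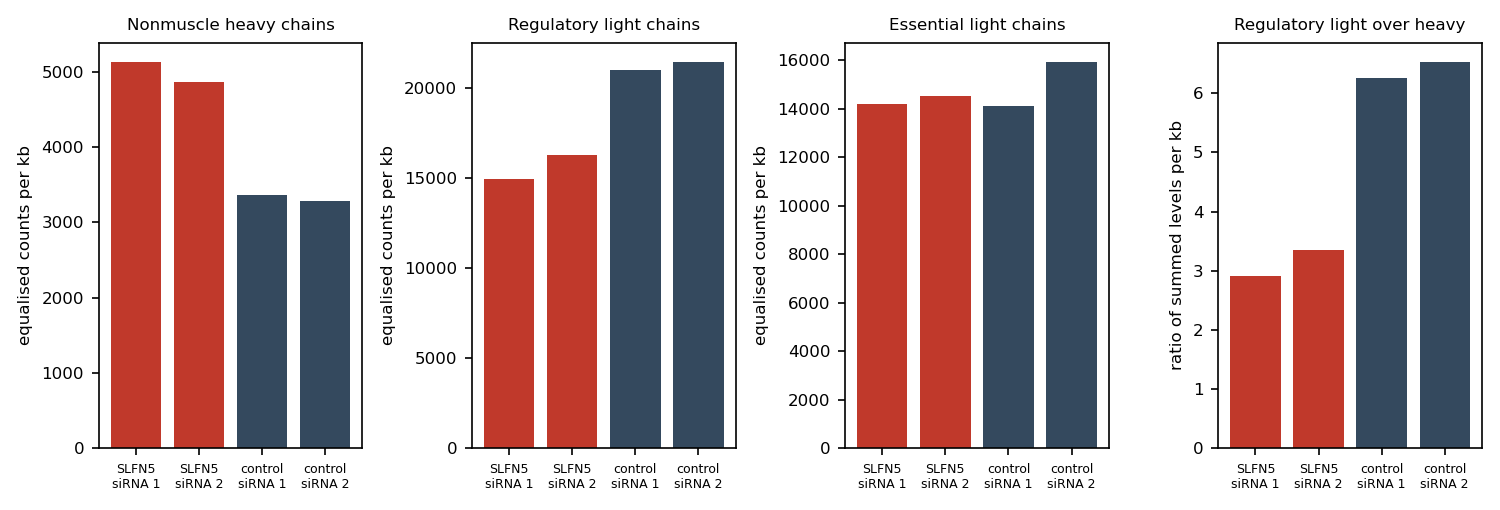
Summed equalised counts per kilobase of transcript in each library (SLFN5 siRNA red, control siRNA dark) for MYH9 plus MYH10, for MYL9, MYL12A and MYL12B, and for MYL6 plus MYL6B, with the ratio of regulatory light to heavy chains in the last panel. Heavy chains are higher and regulatory light chains lower in both SLFN5 siRNA libraries. The ratio is 2.92 and 3.35 there against 6.26 and 6.53 in control siRNA libraries, uncorrected for transcript length and GC trends.

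Heavy chain transcripts are long and light chain transcripts short, and the log2 changes of all genes moved with transcript length and GC content. With all tested genes cut into 5 bins of equal size, the median log2 change was -0.08 in the bin of shortest transcripts and 0.03 in that of the longest, and -0.15 in the bin of lowest GC content and 0.10 in that of the highest. Genes in the same length and GC bins as MYH9 had a median log2 change of 0.25 (273 genes), and those in the bins of MYL12A one of -0.15 (516 genes). With smooth length and GC trends removed from each library, MYH9 still rose (log2 change 0.35, limma adjusted p = 0.0146), as did MYH10 (0.44, adjusted p = 0.00461). On that scale MYL12A fell by 0.41 (adjusted p = 0.00413) and MYL12B by 0.31 (adjusted p = 0.0205), and MYL6B and MYL9 were also called lower (log2 changes -0.49 and -0.46, adjusted p = 0.0146 and 0.0380). This correction was chosen after seeing the data.

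**Figure D3:**
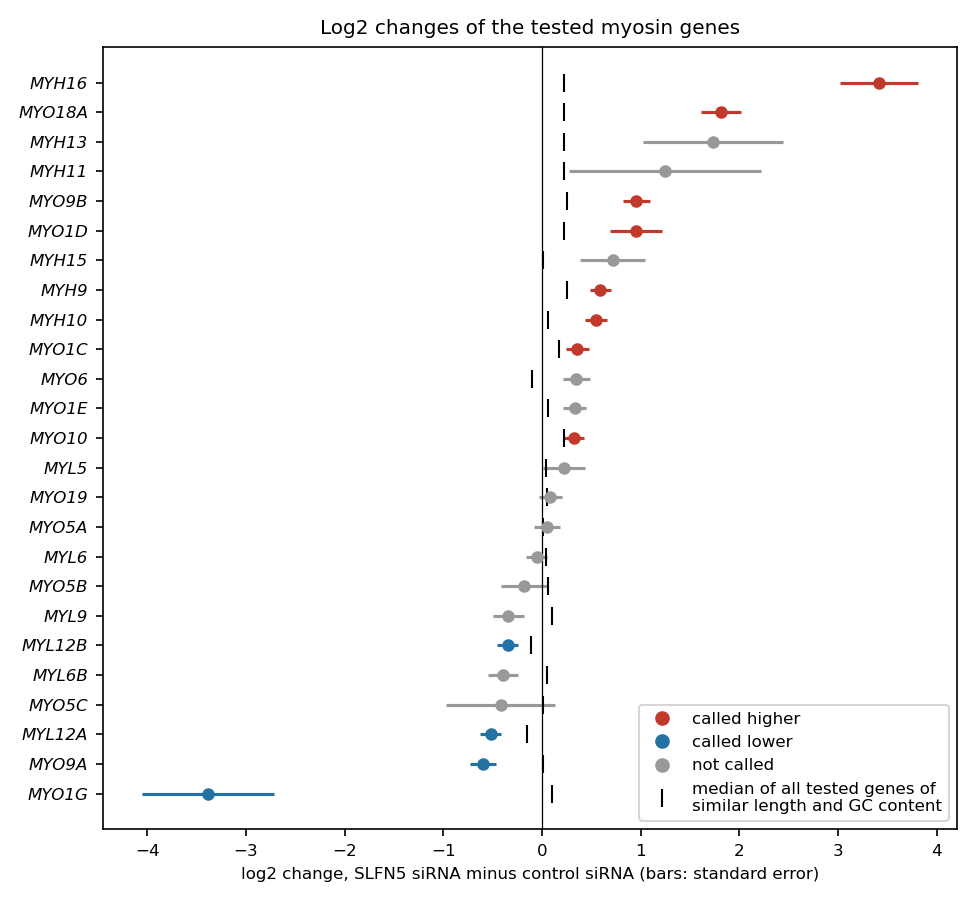
Log2 change of 25 tested myosin genes, SLFN5 siRNA minus control siRNA, with its standard error; red is called higher, blue called lower and grey not called. Black ticks give the median log2 change of all tested genes in the same bins of transcript length and GC content, which runs from -0.15 to 0.25, and MYH16 (3.41) and MYO1G (-3.39) lie at the ends.

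Of the muscle-type heavy chains, 4 of 11 were tested and 1 was called (25%, against 29.6% of all tested genes). MYH16 belonged to jaw muscle in other primates and is a pseudogene in humans. It had 106 and 138 equalised counts in SLFN5 siRNA libraries and 13.8 and 7.84 in control siRNA libraries, the largest increase among the tested myosin genes (log2 change 3.41, SE 0.40, limma adjusted p = 0.000116). Its exons overlap an antisense gene, AC004834.1, over 709 bases, so antisense reads there cannot be told apart from its own, and no value of that gene was used here. MYH16 rested on 223 whole counts after SLFN5 siRNA and 28 after control siRNA, a ratio of 10.4 once library sizes are allowed for (exact 95% interval 7.03 to 16.1, for counting error only). MYH15, a divergent member of the family, had 56.3 and 82.0 equalised counts in SLFN5 siRNA libraries and 40.0 and 41.9 in control siRNA libraries (log2 change 0.72, SE 0.33, limma adjusted p = 0.124). MYH13, the superfast chain of eye muscles, had 22.5 and 21.0 in SLFN5 siRNA libraries and 13.1 and 2.32 in control siRNA libraries (adjusted p = 0.0866). MYH11, the smooth muscle heavy chain, had 7.20 and 16.0 in SLFN5 siRNA libraries and 13.9 and 0.670 in control siRNA libraries, which overlapped. The exons of MYH11 overlap on the opposite strand those of NDE1, which fell by 0.36 (adjusted p = 0.0445). Of these 4 genes, MYH16, MYH15 and MYH13 did not overlap between groups, nor did 64.6% of all tested genes. MYH16 alone passed as reported. MYH13 also passed without control siRNA 1 (log2 change 2.78, adjusted p = 0.0105).

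The other 7 muscle-type heavy chains (MYH1, MYH2, MYH3, MYH6, MYH7, MYH7B and MYH8) had between 0 and 14 counts each over the 4 libraries. The muscle light chains MYL1, MYL2, MYL3, MYL4, MYL7 and MYL10 had between 0 and 9. Markers of muscle cells were also examined, and 9 of 12 skeletal and 6 of 7 cardiac markers were too low to be tested. The summed level of 12 skeletal muscle markers was 357 and 290 equalised counts in SLFN5 siRNA libraries and 208 and 183 in control siRNA libraries. Of these markers 3 were tested, and 2 of them were called higher, as were 13.3% of all tested genes. Those 2 were the giant sarcomere protein gene TTN and the troponin gene TNNT1. The third, DES, had 33.7 and 14.5 equalised counts in SLFN5 siRNA libraries and 29.8 and 37.1 in control siRNA libraries. It was not called (log2 change -0.56, limma adjusted p = 0.407). Most of the sum was TTN, at 237 and 189 in SLFN5 siRNA libraries and 125 and 112 in control siRNA libraries. TNNT3, TNNI2, CKM and MYOD1 had 0 counts. The 7 cardiac markers summed to 65.4 and 62.7 in SLFN5 siRNA libraries and 30.3 and 27.6 in control siRNA libraries, mostly from RYR2, with NPPA at 0 counts. Their part in the change of MYH16 was not tested.

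Class I myosins are single-headed motors that link membranes to actin. MYO1C, which serves vesicle delivery at the plasma membrane, had 3980 and 3496 equalised counts in SLFN5 siRNA libraries and 2991 and 2827 in control siRNA libraries (log2 change 0.36, SE 0.11, limma adjusted p = 0.0333). That call was lost without SLFN5 siRNA 1 (adjusted p = 0.159), control siRNA 1 (0.0800) or control siRNA 2 (0.208), and with length and GC trends removed (log2 change 0.17, adjusted p = 0.152). MYO1D, known for setting left-right asymmetry in flies and vertebrates, had 182 and 148 equalised counts in SLFN5 siRNA libraries and 69.0 and 103 in control siRNA libraries (log2 change 0.96, SE 0.27, limma adjusted p = 0.0181). It did not pass without SLFN5 siRNA 1 (adjusted p = 0.0956) or control siRNA 1 (0.134). MYO1E, an endocytic motor also needed in kidney podocytes, had 4561 and 3979 in SLFN5 siRNA libraries and 3627 and 3164 in control siRNA libraries, just short of the threshold (log2 change 0.33, SE 0.12, limma adjusted p = 0.0568, and 0.0409 without SLFN5 siRNA 2). None of these 3 genes passed throughout when each library was left out in turn.

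MYO1G, a class I motor known mainly from blood cells, fell to near 0. It had 2.04 and 1.20 equalised counts in SLFN5 siRNA libraries and 22.8 and 29.8 in control siRNA libraries (log2 change -3.39, SE 0.67, limma adjusted p = 0.00303). Only the control siRNA libraries reached the minimum value for testing, and a gene admitted in that way can only come out lower. With no filter on low values MYO1G was also called lower (log2 change -3.39, limma adjusted p = 0.000755). The whole counts were 3 after SLFN5 siRNA and 61 after control siRNA, a ratio of 0.0645 with an exact 95% interval of 0.0129 to 0.197 that covers counting error only. The call was lost without control siRNA 2 (log2 change -3.20, adjusted p = 0.0565). Of 7 leukocyte markers 3 were tested and 0 were called at this threshold (limma), against 29.6% of all tested genes. CD3E had 0 counts, PTPRC had 1, and the 7 markers summed to 1088 and 1488 equalised counts in SLFN5 siRNA libraries and 1374 and 1920 in control siRNA libraries, most of it LCP1, whose groups overlapped. The marker ITGAM had 30.6 and 17.8 in SLFN5 siRNA libraries and 11.2 and 2.21 in control siRNA libraries (log2 change 1.96, limma adjusted p = 0.0559). LCP1 had a log2 change of -0.38 (limma adjusted p = 0.148). The part of such cells in the change of MYO1G was not tested. MYO1A, MYO1F and MYO1H had 3, 1 and 0 counts over all libraries.

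None of the cargo motors of classes V and VI passed. Of these 4 genes only MYO6 separated the groups, as did 64.6% of all tested genes. MYO5A, the motor of melanosomes and other organelles, had 1299 and 1488 equalised counts in SLFN5 siRNA libraries and 1267 and 1419 in control siRNA libraries (log2 change 0.05, SE 0.13, limma adjusted p = 0.802). MYO5B, which serves recycling endosomes in epithelia, had 140 and 118 in SLFN5 siRNA libraries and 163 and 130 in control siRNA libraries (adjusted p = 0.606). MYO5C, found in glandular epithelia, had 15.3 and 8.36 in SLFN5 siRNA libraries and 16.4 and 14.7 in control siRNA libraries (adjusted p = 0.618). MYO6, the motor that moves toward the minus end of actin in endocytosis, had 895 and 784 equalised counts in SLFN5 siRNA libraries and 695 and 623 in control siRNA libraries. It was higher in both knockdown libraries but missed the threshold (log2 change 0.35, SE 0.14, limma adjusted p = 0.0829).

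The class IX motors carry a domain that switches off small GTPases, and the 2 members moved in opposite directions. MYO9B had 1851 and 1620 equalised counts in SLFN5 siRNA libraries and 969 and 820 in control siRNA libraries, nearly doubling in the mean (ratio 1.94, log2 change 0.96, SE 0.13, limma adjusted p = 0.000381). MYO9A had 587 and 613 equalised counts in SLFN5 siRNA libraries, against 882 and 936 in control siRNA libraries, and fell to a ratio of 0.660 (log2 change -0.60, SE 0.13, limma adjusted p = 0.00575). Its exons overlap those of SENP8 on the opposite strand over 160 bases, and SENP8 did not pass (adjusted p = 0.325). The MYO9A call was lost without control siRNA 2 (adjusted p = 0.0528). Per kilobase, MYO9B made up 83.7% and 81.1% of MYO9A plus MYO9B in SLFN5 siRNA libraries and 64.2% and 58.8% in control siRNA libraries.

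MYO10, which travels to the tips of filopodia, had 4044 and 4111 equalised counts in SLFN5 siRNA libraries and 3334 and 3183 in control siRNA libraries. It was the weakest increase called (log2 change 0.32, SE 0.11, limma adjusted p = 0.0380). Leaving out any library ended the call (adjusted p = 0.0794 without SLFN5 siRNA 1, 0.0967 without SLFN5 siRNA 2, 0.125 without control siRNA 1 and 0.258 without control siRNA 2), as did removing length and GC trends (log2 change 0.17, adjusted p = 0.178) or testing with no filter on low values (adjusted p = 0.0590).

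MYO18A, an unusual myosin that lacks strong motor activity and links the Golgi to actin, rose the most among the protein-coding myosin genes. It had 374 and 322 equalised counts in SLFN5 siRNA libraries and 103 and 93.1 in control siRNA libraries. It averaged 348 ± 36.8 after SLFN5 siRNA and 98.2 ± 7.21 after control siRNA (SD, n = 2 each), a ratio of 3.54 (log2 change 1.81, SE 0.20, limma adjusted p = 9.66e-05). TIAF1, which shares exonic sequence with MYO18A on the same strand, was listed with 0 counts in all 4 libraries. MYO19, the motor of mitochondria, had 1931 and 1810 equalised counts in SLFN5 siRNA libraries and 1781 and 1743 in control siRNA libraries, and did not pass (log2 change 0.09, SE 0.11, limma adjusted p = 0.619). Its exons overlap 2 genes of the opposite strand, ZNHIT3, which was lower (log2 change -0.57), and PIGW, which was higher (log2 change 0.71). MYO18B had 2 counts in all.

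The 7 remaining genes, MYO3A, MYO3B, MYO7A, MYO7B, MYO15A, MYO15B and MYO16, belong to classes known from hair cells, microvilli and neurons. They had between 3 and 28 counts each over the 4 libraries and were not tested. Their highest value was 18.3 equalised counts, for MYO15B in SLFN5 siRNA 1. Of all 25 untested myosin genes, 7 had 0 counts in every library. A count of 0 allows up to 3 counts, which is between 9.40e-06% and 2.27e-05% of a library.

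Per kilobase of transcript the order of levels in control siRNA libraries ran from MYL6 (14616) over MYL12A (12089), MYL12B (8988) and MYH9 (3115) to MYO1C (606). In SLFN5 siRNA libraries the same genes stood at 14039 for MYL6, 8423 for MYL12A, 7071 for MYL12B, 4697 for MYH9 and 778 for MYO1C. The order of these 5 genes was thus the same in both groups, and the regulatory light chains stood closer to MYH9 after SLFN5 siRNA.

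Promoter sequence was examined for the gene that rose most among those coding for protein and for MYL12A, the light chain gene with the larger decrease of the 2 that fell. RefSeq windows on GRCh38.p14, from 250 bases before to 50 after a start site, existed for 22 of the 26 tested genes, and where a gene has several the one listed first was used. Capitals mark ACGTG, the core bound by hypoxia-inducible factors, on either strand; in MYL12A a match on each strand overlaps the other.
MYO18A, chr17:29180349-29180648, minus strand: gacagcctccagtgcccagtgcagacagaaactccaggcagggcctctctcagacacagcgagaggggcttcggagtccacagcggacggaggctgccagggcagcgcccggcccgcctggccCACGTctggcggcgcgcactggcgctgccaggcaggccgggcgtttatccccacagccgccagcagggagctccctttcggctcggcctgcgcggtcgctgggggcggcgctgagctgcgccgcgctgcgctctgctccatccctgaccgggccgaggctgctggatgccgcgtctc
MYL12A, chr18:3247232-3247531, plus strand: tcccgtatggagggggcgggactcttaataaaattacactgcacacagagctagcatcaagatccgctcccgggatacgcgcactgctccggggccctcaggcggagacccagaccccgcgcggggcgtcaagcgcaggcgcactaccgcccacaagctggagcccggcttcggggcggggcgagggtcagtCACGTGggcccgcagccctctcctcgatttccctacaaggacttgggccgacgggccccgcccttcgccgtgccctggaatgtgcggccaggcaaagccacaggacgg

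ACGTG stood in 10 of the 22 windows, those of MYH10, MYH15, MYL12A, MYL5, MYL6, MYO10, MYO18A, MYO19, MYO6 and MYO9A, and in 21.6% of the 27305 windows of all genes. The genes with a match included 3 called higher (MYH10, MYO10 and MYO18A), 2 called lower (MYL12A and MYO9A) and 5 not called. The CArG box, bound by serum response factor, was found in 1 window (MYO1E) and in 1.29% of all windows. The AP-1 site, TGACTCA or TGAGTCA on either strand, was also found in 1 window (MYL6B) and in 4.92% of all windows. These are matches of letters, and no binding was measured.

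Genes that regulate or accompany myosin changed at a similar rate. Of 63 such genes 53 were tested, 13 were called higher and 14 lower. That is 50.9% called, against 29.6% of all tested genes and 44.3% of those with a mean of at least 500 equalised counts. The median log2 change of the regulators was -0.07. The list was assembled from general knowledge of the pathway with earlier results of these data known.

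**Figure D4:**
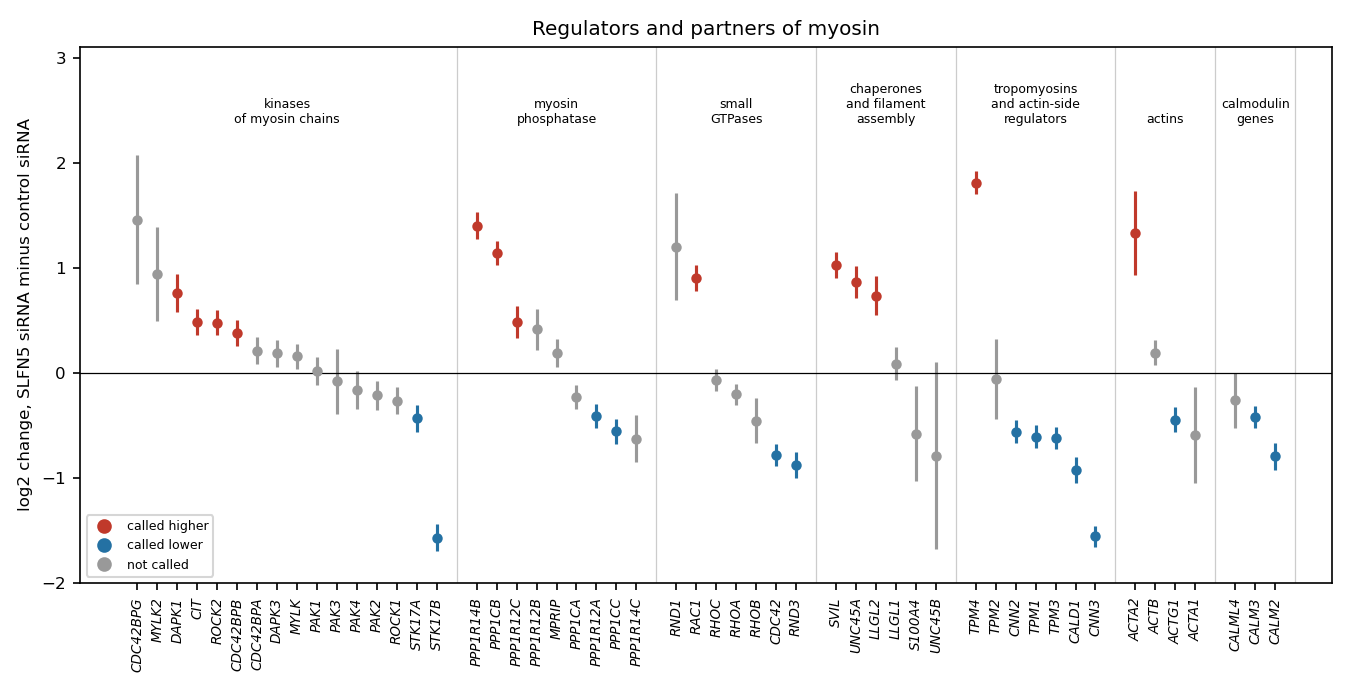
Log2 change, SLFN5 siRNA minus control siRNA, with its standard error for 52 tested regulators and partners of myosin, grouped by role; red is called higher, blue called lower and grey not called. TPM4 (1.81) and PPP1R14B (1.40) rise, CNN3 (-1.56) and STK17B (-1.57) fall, and MYLK and ROCK1 stay grey.

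Among kinases of myosin chains 4 of 16 tested genes rose and 2 fell, 37.5% called against 29.6% of all tested genes. MYLK, the light chain kinase, had 1774 and 1558 equalised counts in SLFN5 siRNA libraries and 1527 and 1461 in control siRNA libraries and did not pass (log2 change 0.16, limma adjusted p = 0.374). ROCK2, which phosphorylates the light chain and myosin phosphatase, rose by 0.48 on the log2 scale (adjusted p = 0.0128), a call lost without control siRNA 2 (0.141), while its relative ROCK1 did not pass (log2 change -0.27, adjusted p = 0.134). Citron kinase CIT, which acts in cytokinesis, rose by 0.48 (adjusted p = 0.0120, but 0.0540 without SLFN5 siRNA 1 and 0.0768 without control siRNA 2), and the death-associated kinase DAPK1 by 0.76 (0.00804, but 0.0627 without SLFN5 siRNA 1). The related kinase STK17B had 521 and 549 equalised counts in SLFN5 siRNA libraries, against 1595 and 1586 in control siRNA libraries, a fall of 1.57 on the log2 scale (SE 0.13, adjusted p = 1.37e-05). STK17A fell by 0.43 (adjusted p = 0.0272, but 0.135 without SLFN5 siRNA 2, 0.239 without control siRNA 1, 0.107 with library totals alone and 0.0989 with length and GC trends removed). The sixth called kinase was CDC42BPB (log2 change 0.38, adjusted p = 0.0340), whose call was lost without SLFN5 siRNA 1 (0.110), SLFN5 siRNA 2 (0.0543) or control siRNA 2 (0.312) and with length and GC trends removed (0.185).

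The subunits of myosin phosphatase split. PPP1CB, its catalytic subunit, had 4537 and 5212 equalised counts in SLFN5 siRNA libraries and 2120 and 2294 in control siRNA libraries (log2 change 1.14, SE 0.12, limma adjusted p = 5.41e-05). The targeting subunit PPP1R12A, which brings it to myosin, went the other way, at 1944 and 2256 in SLFN5 siRNA libraries and 2706 and 2874 in control siRNA libraries (log2 change -0.41, adjusted p = 0.0213). That call was lost without SLFN5 siRNA 1 (adjusted p = 0.113), without control siRNA 2 (0.144) and with library totals alone (0.106). PPP1R14B, an inhibitor of the enzyme, had 1535 and 1474 equalised counts in SLFN5 siRNA libraries and 536 and 604 in control siRNA libraries (log2 change 1.40, SE 0.13, adjusted p = 3.26e-05). PPP1R12C, another targeting subunit, rose by 0.48 (adjusted p = 0.0315, lost without SLFN5 siRNA 1 at 0.0613, SLFN5 siRNA 2 at 0.0910 or control siRNA 2 at 0.281, and at 0.0801 with length and GC trends removed), and the alternative catalytic subunit PPP1CC fell by 0.56 (adjusted p = 0.00489). The catalytic subunit and an inhibitor of the enzyme thus rose together.

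RHOA, the small GTPase that activates the ROCK kinases, did not pass (5947 and 5863 equalised counts in SLFN5 siRNA libraries, 6877 and 6753 in control siRNA libraries, limma adjusted p = 0.155). RND3, which opposes RHOA, fell by 0.88 on the log2 scale (adjusted p = 0.000376) and CDC42, the switch of filopodia, by 0.78 (0.000320). RAC1, the switch of lamellipodia, had 1579 and 1775 equalised counts in SLFN5 siRNA libraries and 919 and 872 in control siRNA libraries (log2 change 0.90, adjusted p = 0.000347). Among chaperones and filament partners 3 of 6 tested genes rose and 0 fell, 50% called against 29.6% of all tested genes. UNC45A, the chaperone that folds nonmuscle myosin heads, had 1422 and 1071 equalised counts in SLFN5 siRNA libraries and 695 and 660 in control siRNA libraries (log2 change 0.86, SE 0.15, adjusted p = 0.00151). Supervillin (SVIL), which ties myosin II to actin and membrane, rose by 1.02 (adjusted p = 0.000143), and the polarity gene LLGL2 by 0.73 (0.0117, but 0.154 without control siRNA 2).

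On the actin side 5 of 7 tested tropomyosin, caldesmon and calponin genes fell and 1 rose, 85.7% called against 29.6% of all tested genes. Tropomyosin 4 (TPM4) had 11420 and 12198 equalised counts in SLFN5 siRNA libraries, against 3521 and 3227 in control siRNA libraries (log2 change 1.81, SE 0.11, limma adjusted p = 3.02e-06). The tropomyosins TPM1 and TPM3 fell by 0.61 and 0.62 on the log2 scale (adjusted p = 0.00170 and 0.00104), so members of this family moved in opposite directions. Calponin 3 (CNN3), an actin-binding inhibitor of the motor, had 5562 and 5774 equalised counts in SLFN5 siRNA libraries and 16764 and 16639 in control siRNA libraries (log2 change -1.56, SE 0.10, adjusted p = 5.56e-06). Caldesmon (CALD1) fell by 0.93 (adjusted p = 0.000269), and the fifth gene that fell was CNN2.

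Among actins, ACTG1 fell by 0.45 on the log2 scale (limma adjusted p = 0.0164), a call lost without SLFN5 siRNA 1 (0.0569), SLFN5 siRNA 2 (0.0871) or control siRNA 2 (0.131) and with library totals alone (0.0873). ACTA2, the smooth muscle actin, had 67.6 and 110 equalised counts in SLFN5 siRNA libraries and 48.0 and 23.4 in control siRNA libraries (log2 change 1.33, adjusted p = 0.0257, but 0.157 without SLFN5 siRNA 2 and 0.176 without control siRNA 2). The 7 smooth muscle markers to which it belongs summed to 1835 and 1824 in SLFN5 siRNA libraries and 2288 and 2417 in control siRNA libraries, with LMOD1 at 0 counts. Most of that sum was SMTN, the smoothelin gene, which fell by 0.41 (adjusted p = 0.0170). Calmodulin serves as the light chain of most unconventional myosins. The calmodulin gene CALM2 fell by 0.80 (adjusted p = 0.000779) and CALM3 by 0.42 (0.0110, but 0.0933 without control siRNA 1 and 0.0726 with library totals alone).

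Of the 13 called myosin genes, MYH16 and MYO18A were called under all 14 alternatives. MYH9, MYH10, MYL12A and MYO9B were called under all but 1, a limma fit without the intensity trend in the variance, which also left 3 of the 13 calls in place (MYH16, MYO18A and MYO1G). With library totals alone as scaling, the median log2 change of all tested genes was higher by 0.12, and 61.4% of all calls were higher, against 45.1% as reported. Under that scaling 10 myosin genes were called higher and 4 lower.

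**Figure D5:**
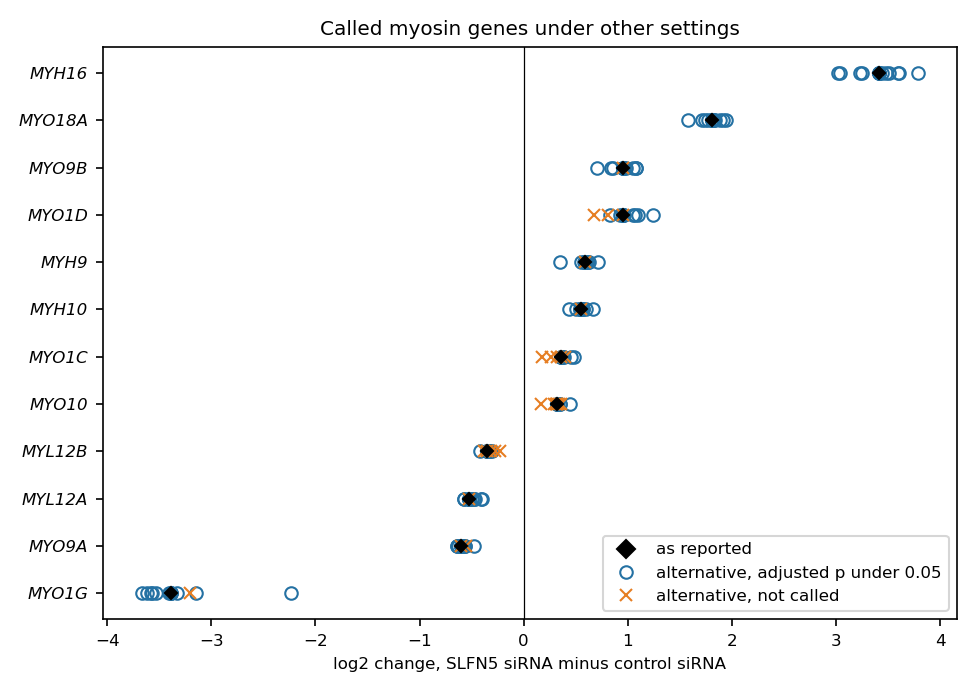
Log2 change, SLFN5 siRNA minus control siRNA, of 12 called myosin genes as reported (black diamonds) and under each alternative, with blue circles where the gene was called and orange crosses where it was not. All values of a gene lie on 1 side of 0, and MYO10, MYO1C and MYL12B carry several crosses.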

How the data were processed

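Per the labels, poly(A)-selected RNA was made into Illumina TruSeq v2 libraries and read as single ends. Per the submitters' processing notes, hg19 and edgeR were used, with no aligner, counter or annotation given in the sources used here. Each deposited value is a gene-level signal, obtained by the authors through adjustment of read counts to a common library size. Inverting that negative binomial quantile adjustment (dispersion 0.0162) gave whole counts for 100% of 230636 values (relative tolerance 1e-06), which served for depth, scaling alternatives and limma-voom. Libraries of a group differed by more than sampling noise: chi-square over its degrees of freedom was 17.8 for SLFN5 siRNA and 18.0 for control siRNA.

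Genes that reached 10 equalised counts in 2 or more libraries were passed to limma 3.58.1 in R 4.3.3 on log2(value + 1), group only, with an intensity trend, all genes together. The recovery of whole counts was tested on simulated data. Transcript length and GC content came from GENCODE v29 (GRCh38), using the longest APPRIS principal transcript, matched by Ensembl ID or symbol for 88.7% of genes. Every myosin gene is counted, 1 tested myosin gene and some other genes are not reported here by name, and regulators called are named, up to 5 a class by size. MYLK, ROCK1, RHOA, CDC42BPB and CNN2 were named outside this rule after their values were seen, as were genes that overlap a myosin gene. Members, lists and tests were chosen with earlier results of these data known. The alternatives are other pseudocounts, filters, scalings and variance models, a replicate block, leaving out each library, and length and GC correction.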

Additional observations from a re-analysis of the deposited data

How the results depend on the processing

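Of 14 alternatives, 1 (length and GC correction) was chosen after seeing the data. Without an intensity trend in the variance, 3 myosin genes were called (2 higher, 1 lower), 7 regulators (5 higher, 2 lower) and 1182 of all genes (672 higher, 510 lower), and the cause was not tested. Leaving out 1 library gave 8 to 13 myosin genes called (5 to 8 higher, 2 to 5 lower), 20 to 26 regulators (7 to 14 higher, 12 to 13 lower) and 2934 to 4084 of all genes (1346 to 1767 higher, 1588 to 2341 lower). The fewest came without control siRNA 2 for all genes (2934), for regulators (20, 7 of them higher) and for myosin genes (8, 2 of them lower), and 9 myosin genes, 5 of them higher, were called without SLFN5 siRNA 1. A group left with 1 library is assumed to vary like the other.

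Genes that turned sign were not called in any setting: MYH11 (-0.333 to 2.82 on leaving out 1 library, lowest without control siRNA 2), MYL6 (-0.147 to 0.0363, highest without control siRNA 2, and 0.0673 with library totals), MYO19 (-0.0355 with length and GC correction) and MYO5A (-0.0455 to 0.150, below 0 without SLFN5 siRNA 2 or control siRNA 1, and -0.000258 with length and GC correction). MYO1E was not called as reported but was in 6 alternatives, MYO6, MYH13, MYL6B and MYL9 in 2 each. With the filter at 50, MYO1G, MYH11, MYH13 and MYO5C were not tested.

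The same 2 codes mark the replicates in both groups, and no label says what they stand for, so pairing could not be settled. Replicate differences of the 2 groups correlated at r = 0.19 over 15640 genes. With a replicate block 18 myosin genes were called, 11 higher and 7 lower: no call was lost, and MYO1E (0.00159), MYO6 (0.0120), MYL6B (0.0152), MYH13 (0.0326) and MYL9 (0.0411) were gained (limma adjusted p). The block also called 34 regulators and 6703 of all genes. Depth differed 2.42-fold between the deepest and shallowest library, which limits low genes such as MYH11, MYH13 and MYO5C.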
